A study of Drosophila melanogaster with 16 samples.

Results

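The BEL/Pao and copia elements are 2 groups of LTR retrotransposons, and 5 of the 109 transposons in the table of 21 nt reads belonged to them by name. They were found by searching the row IDs for the names roo, diver, ninja, Batumi, copia and Max and for the number in DMTN1731, leaving out rover elements, with no use of measured values. The 5 members were DM_ROO (roo), ROOA_LTR (rooA, by its ID the long terminal repeat only) and DIVER2 (diver2) of the BEL/Pao group, and DMCOPIA (copia) and DMTN1731 of the copia group. No row analysed here had an ID with NINJA, BATUMI or MAX. Many IDs do not spell out the name of their element, and elements of these groups under such IDs were not looked for, so the 5 need not be the whole of either group. The study's paper reports siRNAs of ninja and of Max-element in total small RNA. Rows of these under other IDs would count here among the other transposons. The same 5 were among the 122 transposons of the table of 19 to 25 nt reads, and the table of 21 nt reads held 265 features in all without spike-ins.

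Total small RNA was sequenced from 40 whole Drosophila melanogaster flies per library, and 2 libraries stood for each of the 8 combinations of age, sex and genotype. Wildtype flies were of the outbred strain wDah. The dFOXO-null flies (wDah;dfoxo{delta}94) carry a deletion made by imprecise excision of a P element and were backcrossed to wDah, so both genotypes share this background, and the loss of dFOXO cannot be told apart from other differences between these 2 lines. The ages were 5 days (replicate 1) and 6 days (replicate 2) for young flies and 31 days for old flies. Males and females of a genotype were kept together, and young and old flies of a genotype and replicate were siblings. The females were mated.

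LTR retrotransposons are copied through an RNA that is reverse transcribed, and their long terminal repeats flank genes for a structural protein (gag) and an enzyme polyprotein (pol). The BEL/Pao and copia groups are separate lineages that differ in their reverse transcriptase and in the order of the enzyme domains in pol. In somatic cells of flies, double-stranded RNA of transposons is cut by Dicer-2 into siRNAs of the length analysed here, which are loaded into Ago2. In the gonads, transposons are silenced mainly by the longer piRNAs. dFOXO is the only FOXO transcription factor of the fly and acts below insulin signalling.

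The libraries held 114210 to 1571537 mapped reads of 21 nt, of which transposons took 1.11% to 2.17% in males and 6.93% to 14.3% in females. Replicates differed by far more than counting error: the chi-square statistic of a pair, divided by its degrees of freedom, was 84.2 to 1145. The 3 ovary miRNAs of a marker list together took 1.27% to 4.77% of 19 to 25 nt reads in females and 0.0106% to 0.154% in males, and the 9 testis miRNAs took 0.0353% to 0.0822% in males and 0.0024% to 0.0120% in females. The library of old dFOXO-null males of replicate 2 held the 0.154%, against at most 0.0301% in the other male libraries. Small RNAs do not measure the mRNA of foxo, so the deletion could not be checked. A read could count on more than 1 element, since all alignments with up to 1 mismatch were reported.

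The 21 nt reads of roo were lowest in wildtype males, higher in dFOXO-null males and highest in females. In wildtype males roo took 0.141% and 0.192% of mapped 21 nt reads when young and 0.164% and 0.159% when old. In dFOXO-null males the values were 0.407% and 0.564% when young and 0.377% and 0.411% when old. Wildtype females had 0.640% and 0.673% when young and 0.614% and 0.601% when old. In dFOXO-null females roo took 0.896% and 0.682% when young and 0.608% and 0.989% when old. The 4 wildtype male libraries were thus the lowest, the 4 dFOXO-null male libraries followed without overlap, and the 8 female libraries were all higher. In the order of the condition means, the young and old flies of each sex and genotype were neighbours, and only in wildtype females did their libraries not overlap.

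copia, the element after which the copia group is named, followed another order. Its 21 nt reads took 0.0212% and 0.0208% of mapped reads in young wildtype males and 0.0487% and 0.0507% in old ones. In dFOXO-null males it took 0.0101% and 0.0155% when young and 0.0228% and 0.0201% when old. Young wildtype females had 0.0609% and 0.0593%, and old ones 0.0804% and 0.165%. The dFOXO-null females had 0.0338% and 0.0228% when young and 0.0227% and 0.0462% when old. The 4 wildtype female libraries were the highest of the 16, followed by the 2 of old wildtype males. The 4 dFOXO-null female libraries fell between 0.0227% and 0.0462%, below every wildtype female library and below both libraries of old wildtype males. In the order of means, young wildtype and old dFOXO-null males were neighbours whose libraries overlapped, as did those of young and old dFOXO-null females.

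The remaining 3 elements were sparse in males. In the 8 male libraries rooA had 3 to 16 reads of 21 nt, diver2 4 to 47 and DMTN1731 2 to 65, against 85 to 625, 90 to 459 and at most 374 in the 8 female libraries. Counting error alone therefore limits what can be said of them in males. Levels of different elements are not ranked against each other here, since the counts are not scaled by the length of each sequence.

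**Figure D1:**
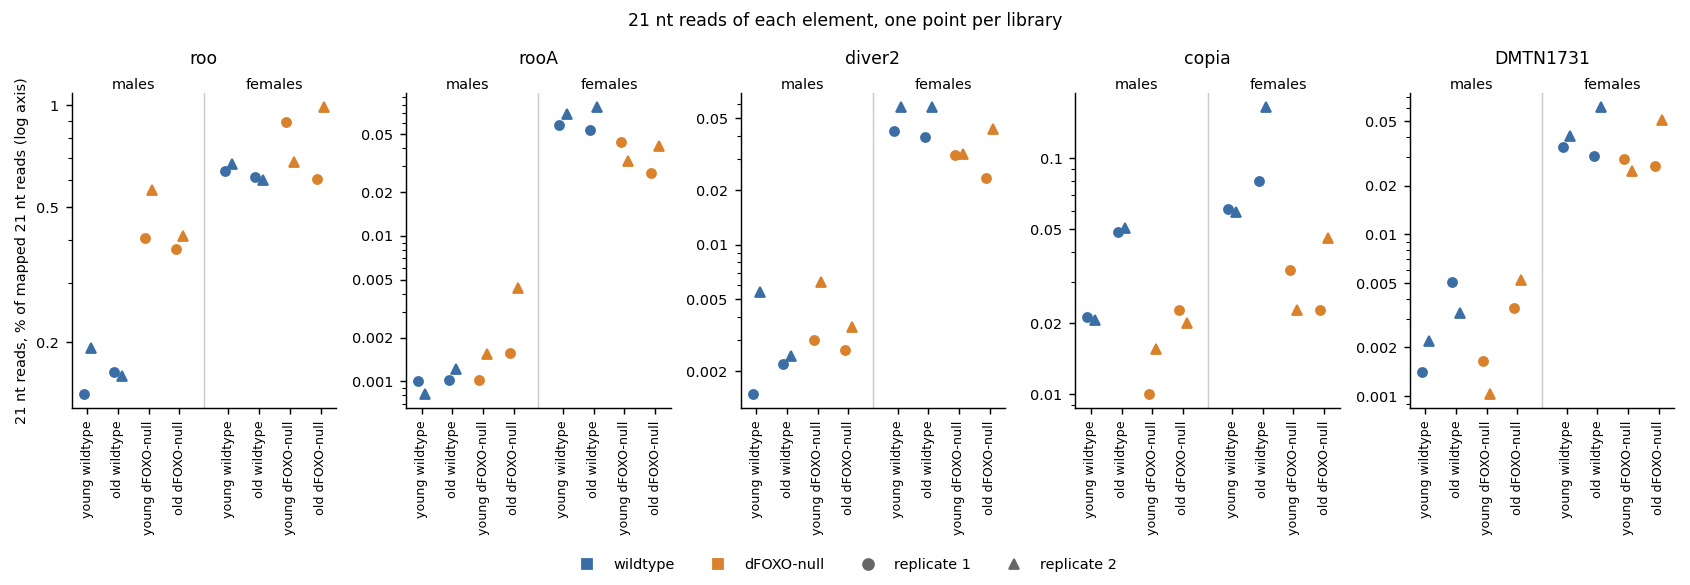
21 nt reads of roo, rooA, diver2, copia and DMTN1731 as a percent of mapped 21 nt reads (log axes, which differ between panels), one point per library, by sex, age and genotype, with circles for replicate 1 and triangles for replicate 2. For roo, the dFOXO-null male libraries (0.377% to 0.564%) sit above the wildtype male libraries (0.141% to 0.192%). For copia, the dFOXO-null female libraries (at most 0.0462%) sit below the wildtype ones (at least 0.0593%).

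In the reference genome (BDGP6, also called dm6), roo is the most frequent of these families. Its annotation holds 144 copies of roo, 112 of them at least 5000 bp long, with 29 on the X chromosome and none on the Y. A full copy is about 9 kb: one at X:10267358-10276449 on the minus strand is 9092 bp long. copia had 39 annotated copies, 30 of them at least 5000 bp and with a median of 5146 bp among those, also with none on the Y. diver2 had 49 copies (4 of at least 5000 bp), rooA 17 (5) and DMTN1731 16 (none, and 1 copy on the Y). The longest copy of DMTN1731 was 4670 bp, so the cut of 5000 bp does not separate its long copies from short ones. These copies are those of the reference strain. Insertions in wDah and in the dFOXO-null line were not analysed here.

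All 5 elements had more 21 nt reads per mapped read in females than in males, but roo and copia much less so than most transposons. roo took 0.141%, 0.284% and 0.564% of mapped reads (lowest, median and highest of 8 libraries) in males and 0.601%, 0.657% and 0.989% in females, with no overlap. For copia the male libraries (0.0101% to 0.0507%) and the female libraries (0.0227% to 0.165%) overlapped. Averaged over genotype and age, the log2 difference was 1.40 ± 0.23 (standard error) for roo and 1.16 ± 0.26 for copia, with adjusted p of 6.06e-05 and 0.000951 by edgeR's quasi-likelihood test. The difference was 5.17 ± 0.31 for rooA, 3.67 ± 0.34 for diver2 and 3.80 ± 0.30 for DMTN1731, and in these 3 every female library lay above every male library. All 5 passed the threshold of 0.05, as did 66.3% of all 258 features tested (52.7% higher in females) and 97.1% of the 105 transposons tested, so the calls say little about these elements. Their place among the 105 transposons says more: copia was number 102 and roo number 100 in order of the difference, whose median was 4.10. All 30 elements classed as gypsy-group and all 28 classed as LINE were called higher in females, with medians of 4.16 and 5.10. These classes were set by fragments of names in the IDs, so elements can be misplaced. The LINE class took in DMPOGOR11, by its name the DNA transposon pogo.

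This comparison depends on what the reads are set against. With TMM scaling, which centres the bulk of the features, the median of the transposons fell to 2.92 and the differences of roo (0.30, adjusted p = 0.238) and copia (0.01, adjusted p = 0.956) no longer passed. As a share of transposon reads, roo (-1.42, adjusted p = 3.44e-05) and copia (-1.71, adjusted p = 4.92e-06) were lower in females. Relative to the median of the transposons, roo lay between -2.72 and -2.62 and copia between -3.06 and -2.91 under all 5 scalings tried (mapped reads, TMM, DESeq2, spike-in reads and transposon reads). A scaling moves all features nearly alike, so these ranges are narrow by construction and are no test of the result. The reads of the ovary miRNAs also separated the sexes without overlap, and their part in these differences was not tested. In whole flies, fewer cells of a type and less RNA per cell cannot be told apart.

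**Figure D2:**
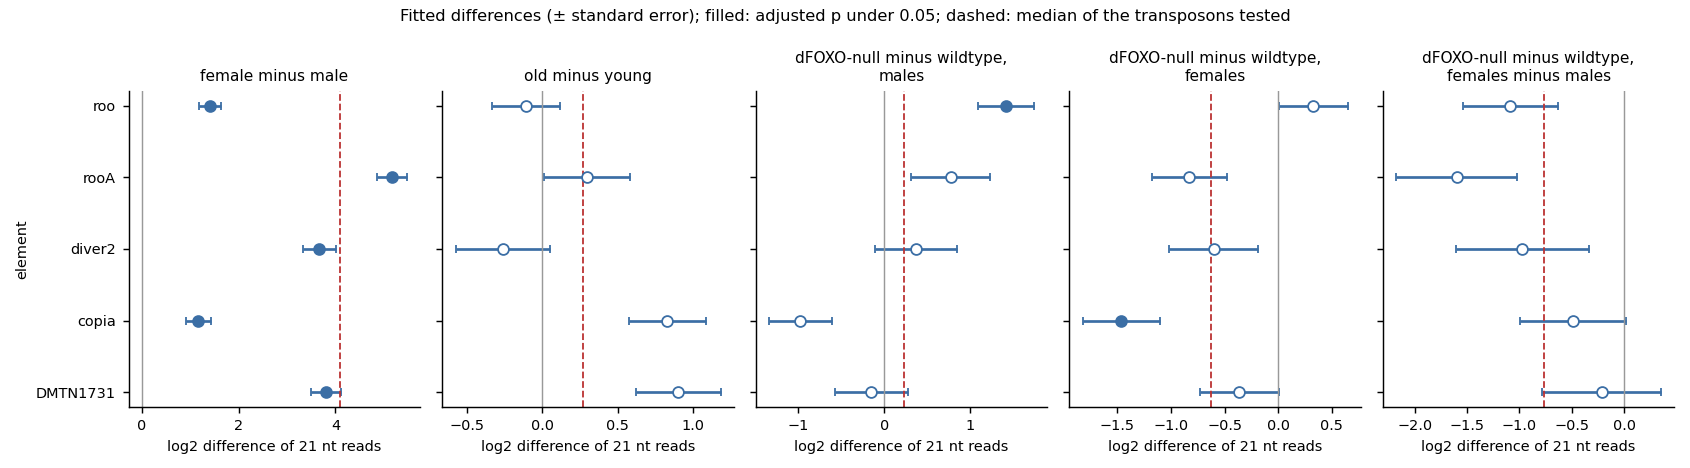
Fitted log2 differences of 21 nt reads per mapped read for the 5 elements (points, bars are ± standard error) in 5 comparisons over 16 libraries, filled where the adjusted p is under 0.05, with the median of the transposons tested as a dashed line. roo and copia lie at 1.40 and 1.16 in the comparison of the sexes, far below the median of 4.10, and go apart with the loss of dFOXO in males, to 1.42 and -0.97.

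In males without dFOXO, 21 nt reads of roo rose while those of copia were lower without passing the test. The level of roo was 2.92 times that of wildtype in young males and 2.44 times in old males, as ratios of the means of 2 libraries. Over both ages the log2 difference was 1.42 ± 0.32, with an adjusted p of 0.0356 by edgeR, and all 4 dFOXO-null libraries lay above all 4 wildtype ones. copia differed by -0.97 ± 0.36 (adjusted p = 0.319), rooA by 0.77 ± 0.46, diver2 by 0.37 ± 0.48 and DMTN1731 by -0.15 ± 0.43 (adjusted p from 0.827 to 1.00). So 1 of the 5 was called, against 1.94% of the 258 features (1.16% higher), and roo was number 3 of the 105 transposons in order of the difference, whose median was 0.23. Among the other transposons 1 of the 28 elements classed as LINE and 1 of 42 unclassed elements were called higher. Of the 30 classed as gypsy-group, 1 was called lower.

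The share of roo among transposon reads was higher as well, but this share also depends on the other transposons. roo took 7.33% to 12.4% of transposon 21 nt reads in wildtype males and 25.1% to 40.9% in dFOXO-null males. The study's paper reports that the element of DMIS297 had the most transposon siRNAs in wildtype and far fewer in dFOXO-null flies. The part of that loss in the share of roo was not tested. The fitted difference stayed between 1.21 and 1.73 under these 5 scalings, but the adjusted p was 0.066 with TMM and 1.00 with spike-in reads. The call was also lost without any one of 11 of the 16 libraries, with an adjusted p of 0.0604 to 0.201 and a log2 difference of 1.29 to 1.54. These were each of the 4 libraries of young females, and each male library except that of old dFOXO-null males of replicate 1. Without the replicate 2 library of old dFOXO-null males, which stood apart in its ovary miRNAs, the difference was 1.38 (adjusted p = 0.0834).

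In females without dFOXO, 21 nt reads of copia fell, and roo was not called. Over both ages copia fell by 1.46 on the log2 scale (standard error 0.36), with an adjusted p of 0.0309 by edgeR, and all 4 dFOXO-null female libraries lay below all 4 wildtype ones. The level of roo differed by 0.33 ± 0.32 (adjusted p = 0.548), with overlapping libraries. rooA (-0.83 ± 0.35, adjusted p = 0.195) and diver2 (-0.60 ± 0.41) did not pass, nor did DMTN1731 (-0.36 ± 0.37). So 1 of the 5 was called, against 5.43% of the 258 features (3.88% lower). The 105 transposons had a median of -0.63 and 5 calls, all lower, so roo lay above most transposons, as number 8 in order of the difference, and copia below most, as number 100. rooA, at 0.0531% to 0.0770% in wildtype and 0.0269% to 0.0442% in dFOXO-null females, was also lower in every dFOXO-null library.

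The call of copia in females was lost with transposon reads as library size (-1.02, adjusted p = 0.0572), with spike-in reads (-0.74, adjusted p = 1.00) and without any one of 6 libraries (-1.62 to -1.16, adjusted p of 0.071 to 0.172). These were the 4 libraries of young females, replicate 1 of old dFOXO-null females and replicate 2 of old wildtype females. Relative to the median of the transposons, roo lay 1.13 to 1.19 above it in males and 0.87 to 0.96 above it in females under the 5 scalings, and copia 1.20 to 1.31 and 0.78 to 0.84 below it. These ranges, too, are narrow by construction.

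The effect of dFOXO loss on roo was not shown to differ between the sexes. The difference of the effects, females minus males, was -1.09 ± 0.45 (unadjusted p = 0.0305, adjusted p = 0.393 by edgeR), beside a median of -0.77 over the 105 transposons. rooA had the largest of the 5 differences (-1.60 ± 0.58, unadjusted p = 0.015, adjusted p = 0.391), and copia differed by -0.49 ± 0.51. No feature of 258 was called (0%), while 26 had an unadjusted p under 0.05, 2 of them among these 5 elements. DESeq2 called 8 features (3.1%), among them roo (-1.12, adjusted p = 0.0407).

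With age, 21 nt reads of copia and DMTN1731 were higher in most sibling pairs and those of roo were not. copia was higher in the old library of 7 of 8 pairs, by ratios of 2.29 and 2.44 in wildtype males, 1.32 and 2.79 in wildtype females, 2.26 and 1.30 in dFOXO-null males, and 0.672 and 2.02 in dFOXO-null females. DMTN1731 was higher in 6 of 8 pairs, with ratios from 0.877 to 5.08, the highest from 2 and 6 reads. roo was higher in 2 of 8 pairs (0.679 to 1.45), diver2 in 2 of 8 and rooA in 6 of 8. In the fit without the pairs, the log2 difference was 0.83 ± 0.25 for copia (adjusted p = 0.0535 by edgeR), 0.90 ± 0.28 for DMTN1731 (adjusted p = 0.0565) and -0.11 ± 0.23 for roo (adjusted p = 0.826). rooA (0.29 ± 0.29) and diver2 (-0.26 ± 0.32) had adjusted p of 0.609 and 0.633. None of the 5 was thus called, against 9.69% of the 258 features, although 2 had an unadjusted p under 0.05, and DESeq2 called copia (0.49, adjusted p = 0.0244) with 15.9% of the features.

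Since siblings were taken at both ages, the fit with the replicate number nested in genotype as a block carries this pairing. In it copia (0.81, adjusted p = 0.0425) and DMTN1731 (0.88, adjusted p = 0.0488) both passed, as did 18.6% of the features. With the number as a block across genotypes they were at 0.81 (adjusted p = 0.0242) and 0.87 (adjusted p = 0.0294), beside 19% of the features. Of the other transposons, 0 of 30 classed as gypsy-group, 0 of 28 classed as LINE and 1 of 42 unclassed were called without the block. The median over all 105 was 0.27 in that fit. Spike-in reads as library size turned the direction: copia was then at -1.74, DMTN1731 at -1.58 and the median of the transposons at -2.24. Relative to that median copia lay 0.50 to 0.61 above it, DMTN1731 0.61 to 0.68 above it and roo 0.24 to 0.38 below it under the 5 scalings, ranges again narrow by construction. The reads of spike-ins moved with age, from 1.75 to 16.3 per 100000 mapped 19 to 25 nt reads in young libraries to 4.03 to 150 in old ones, and their part in this was not tested. Markers of the gonads moved with age as well, without overlap. The ovary miRNAs took 3.84% to 4.77% of 19 to 25 nt reads in young females and 1.27% to 2.74% in old ones, and the testis miRNAs 0.0546% to 0.0822% in young males and 0.0353% to 0.0521% in old ones. Their part in the differences by age was not tested.

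**Figure D3:**
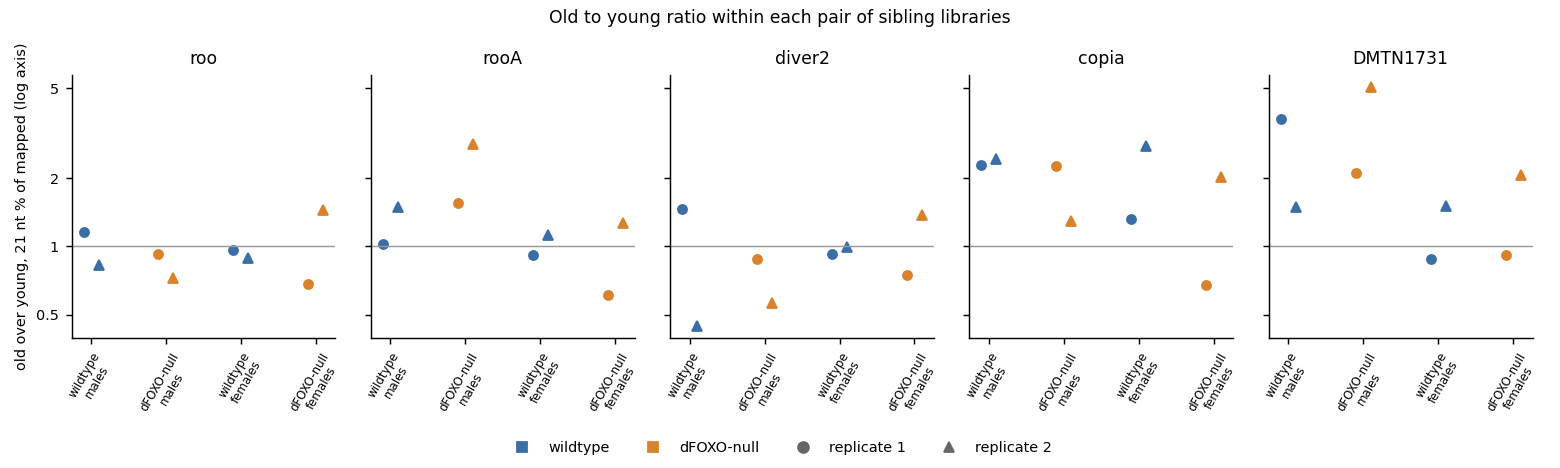
Ratio of the old to the young sibling library in percent of mapped 21 nt reads (log axis) for each of the 5 elements, 1 point per pair, by sex and genotype, with circles for replicate 1 and triangles for replicate 2. For copia 7 of 8 pairs lie above 1, and for roo 2 of 8.

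Because roo and copia were counted in the same library, their ratio needs no library size. In wildtype males there were 6.63 and 9.24 reads of roo per read of copia when young and 3.36 and 3.14 when old. In dFOXO-null males the ratio was 40.5 and 36.4 when young and 16.6 and 20.4 when old. Wildtype females had 10.5 and 11.3 when young and 7.64 and 3.63 when old. The dFOXO-null females had 26.5 and 29.9 when young and 26.8 and 21.4 when old. Every dFOXO-null library was thus above every wildtype library, of either sex and age.

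The ratio was 4.22-fold higher without dFOXO (log2 2.08) over both sexes and ages, with an exact permutation p of 0.00154, the smallest that 1296 permutations within sex and age can give (adjusted p = 0.00772 over 5 tests). It was 5.23-fold higher in males and 3.41-fold higher in females, where the exact test of 4 against 4 libraries within age cannot go below the p of 0.0556 that it gave in both. Without replicate 2 of old dFOXO-null males the log2 difference was 2.04 overall and 2.32 in males. Old flies had a lower ratio than young ones in 7 of 8 sibling pairs (log2 -0.90, 0.534-fold, exact permutation p = 0.0156, adjusted p = 0.0391). Females and males did not differ beyond the spread of the pairs (log2 0.29, higher in 6 of 8 pairs of libraries, exact permutation p = 0.188). All p-values are two-sided. These exact tests take the libraries, or pairs of libraries, of one genotype and replicate as independent. Their flies were siblings or kept together, so only 2 replicates of each genotype were separate and the p-values can be too small. As the ratio holds both elements, it does not say which of them moved.

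**Figure D4:**
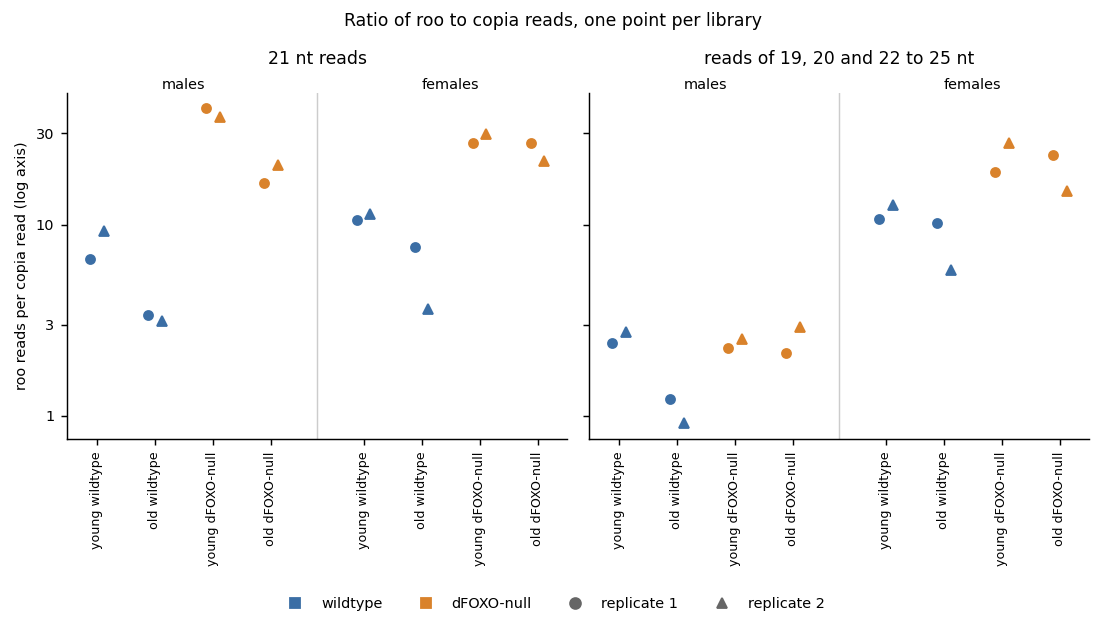
Reads of roo per read of copia (log axis), one point per library, for 21 nt reads and for reads of 19, 20 and 22 to 25 nt. At 21 nt every dFOXO-null library (16.6 to 40.5) is above every wildtype library (3.14 to 11.3), while at the other lengths the dFOXO-null male libraries (2.13 to 2.90) overlap those of wildtype males (0.918 to 2.73).

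roo had a higher share of 21 nt reads in males than in females. In wildtype males 21 nt reads made up 29.8% to 40.7% of the 19 to 25 nt reads of roo, and in dFOXO-null males 41.8% to 57.4%, the lowest in the replicate 2 library of old flies that stood apart in its ovary miRNAs. In the 8 female libraries the share was 6.70% to 13.7%. The mean difference of females minus males was -34.1 percentage points, with the same sign in 8 of 8 pairs of libraries (exact permutation p = 0.00781, the smallest possible, adjusted p = 0.0195 over the 5 elements). rooA (-6.58 points, adjusted p = 0.0195) and DMTN1731 (-6.54 points, adjusted p = 0.026) had higher shares in males as well, and copia (-2.83 points, adjusted p = 0.117) and diver2 (-0.058 points, adjusted p = 0.914) did not pass. diver2 had a share of at most 8.96% in each of the 16 libraries. These exact tests, too, take pairs of libraries from the same siblings as independent. For the sum of the transposons outside the 5 elements, the share was 28.6% to 41.2% in wildtype males and 15.3% to 25.9% in dFOXO-null males. In females it was 7.45% to 11.5%. The share of roo thus lay apart from that of this sum only in dFOXO-null males.

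Within males the 21 nt share of roo was higher without dFOXO, and that of the summed reads of the other transposons was lower. For roo it was 52.5% on average in dFOXO-null males against 34.3% in wildtype males, with no overlap (exact permutation p = 0.0556, the smallest possible). The share of copia was 9.61% against 14.7% (p = 0.0556 by the same exact test), with overlap in 1 library. The sum of the transposons outside the 5 elements was at 20.3% against 33.1%, with no overlap (p = 0.0556 by the same exact test). Abundant elements weigh most in this sum, so it does not say how single transposons moved. DMIS297, by the study's paper the most abundant in wildtype and much scarcer in dFOXO-null flies, is part of it. Its part in the lower share was not tested. In females the share of roo was 10.3% against 8.27% (exact permutation p = 0.222). With age, the share of copia was higher in 8 of 8 sibling pairs, from 8.82% to 12.6% on average (exact permutation p = 0.00781), and that of DMTN1731 in 7 of 8 pairs, by 3.50 points. These 15 comparisons by age and genotype were added after the data were seen, and none passed when adjusted over them (adjusted p = 0.117 for copia with age, 0.176 for DMTN1731 with age and 0.208 for roo and for copia in males).

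**Figure D5:**
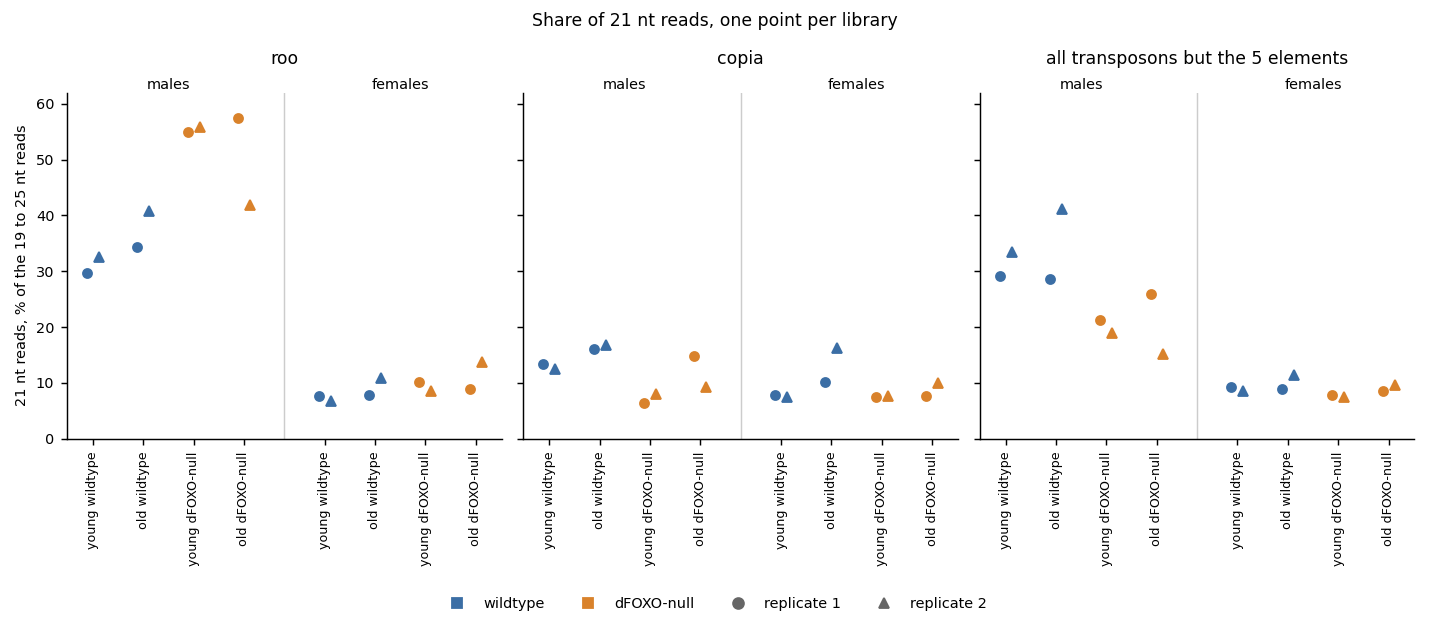
Share of 21 nt reads among the 19 to 25 nt reads of roo, of copia and of the sum of all transposons outside the 5 elements, one point per library. For roo the dFOXO-null male libraries (41.8% to 57.4%) lie above the wildtype male libraries (29.8% to 40.7%), and for the sum of the other transposons they lie below (15.3% to 25.9% against 28.6% to 41.2%).

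At the other lengths of 19, 20 and 22 to 25 nt, a comparison also added after the data were seen, roo was not called between the genotypes. Its reads of these lengths took 0.0346% to 0.0461% of mapped 19 to 25 nt reads in wildtype males and 0.0344% to 0.109% in dFOXO-null males, the highest again in replicate 2 of old flies. The fitted difference was 0.44 ± 0.38 (adjusted p = 0.994 by edgeR, with 0.627% of 319 features called), beside 1.42 ± 0.32 at 21 nt. Between the sexes roo differed by 4.23 ± 0.30 at the other lengths and by 1.40 ± 0.23 at 21 nt, and copia by 1.51 ± 0.30 and 1.16 ± 0.26, where 63.3% of the features were called at the other lengths. The ratio of roo to copia at these lengths was higher in females, at 5.77 to 26.7, than in males, at 0.918 to 2.90 (log2 2.79, 8 of 8 pairs, exact permutation p = 0.00781, the smallest possible). In the full range of 19 to 25 nt, roo was at 0.86 ± 0.33 with the loss of dFOXO in males (adjusted p = 0.452 by edgeR, with 0.909% of 330 features called) and copia at -1.27 ± 0.40 in females (adjusted p = 0.115, with 3.33% called).

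roo and copia were negatively correlated within each sex. Within males the Pearson correlation of their log2 levels was -0.67 and within females a weaker -0.29 (8 libraries each), while over all 16 libraries it was 0.20. By the same measure over all 16 libraries, the transposons most like roo were TARTYAK (r = 0.89), STALKER2 (0.88) and DMAURA (0.88), and those most like copia were DMPOGOR11 (0.88), DMIS297 (0.82) and OPUS (0.80). For copia these held within each sex, at 0.62 to 0.88 in males and 0.77 to 0.96 in females. For roo, STALKER2 was at 0.69 in males and 0.93 in females, while TARTYAK and DMAURA were at 0.74 and 0.78 in males and 0.40 and 0.23 in females. Whether any of these transposons, DMAURA among them, belongs to the BEL/Pao or copia group under another name was not looked for. The libraries share sex, genotype and depth, and the values are a description with no test.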

How the data were processed

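Total small RNA of 19 to 35 nt was isolated by the authors from gels, sequenced and trimmed (Trim Galore). Reads of 19 to 25 nt, or of 21 nt alone, were mapped with sR_bowtie to miRNAs, transposons and spike-ins with 1 mismatch, reporting all valid alignments, and counted with featureCounts. The versions are not given in the sources used here. The deposited counts are whole numbers of reads. Percent tables deposited beside them hold each count divided by its library's mapped reads without spike-ins. Percents were recomputed from the counts and differed from the deposited ones by at most a relative 0.000502 (21 nt) and 0.00334 (19 to 25 nt). Tables of reads mapped to dm6 were not used.

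The quasi-likelihood test of edgeR 4.0.16 (R 4.3.3) was run on 21 nt counts in 1 fit of 16 libraries with a coefficient for each of 8 conditions, library sizes set to the mapped reads other than spike-ins, and features with a mean of at least 5 counts (258 of 265, with 105 of 109 transposons and all 5 elements). The adjustment for multiple tests was that of Benjamini and Hochberg over these features, with a threshold of 0.05. Standard errors were derived from the log2 difference and the F statistic. The fits were tested on simulated counts. Ratios (0.5 reads added) and length shares were compared by exact permutation tests (Python 3.11.15, scipy 1.17.1). P-values rest on the spread of 2 libraries a condition. The fit without a block and the exact tests take libraries, or pairs of them, of one genotype and replicate as independent. Their flies were siblings or kept together, so the p-values can be too small. Alternatives were TMM, DESeq2 1.42.0, other library sizes, no filter, adjustment over transposons alone, replicate blocks, 19 to 25 nt reads, other lengths and leaving out each library. The labels pair young and old siblings. The deviations of sibling libraries from their condition means correlated at 0.046 to 0.354. Those of male and female libraries of one genotype, age and replicate correlated at 0.360 to 0.453. Between the genotypes, for one sex, age and replicate number, the values were 0.170 to 0.657. All members were named by a rule on IDs, and members and lists were chosen with earlier results of these data known. Coordinates are those of the BDGP6 annotation. Without molecular identifiers, a read need not be a separate molecule.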

Additional observations from a re-analysis of the deposited data

How the results depend on the processing

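Of the 5 elements, the number called in the comparison of the sexes fell from 5 to 3 with TMM and DESeq2. As a share of transposon reads roo (-1.42) and copia (-1.71) reversed. By age, the count of 0 became 1 with DESeq2 and 4 with spike-in reads, where copia (-1.74), DMTN1731 (-1.58) and rooA (-2.23) reversed. It ranged from 0 to 2 when 1 library was left out, with 2 (copia and DMTN1731) without replicate 1 of old wildtype or of old dFOXO-null females (adjusted p of 0.021 to 0.0323). The replicate block, nested in genotype or not, gave 2 in place of 0 by age and moved the count in no other comparison of the 5. With dFOXO loss in males, the count of 1 became 2 with DESeq2 and 0 with TMM, spike-in reads, 19 to 25 nt reads, other lengths or the 8 male libraries alone. In females it became 0 with spike-in or transposon reads, 19 to 25 nt reads, other lengths or the 8 female libraries alone. Both ranged from 0 to 1 without 1 library. The count of 0 for the difference of the effects became 1 with DESeq2. Of 60 tests within single conditions 16 passed, all between the sexes, and 9 passed with spike-in reads. DESeq2 also passed 16, among them roo with dFOXO loss in young males (1.68, adjusted p = 0.00012) and old males (1.40, adjusted p = 0.00828) and copia in old females (-1.63, adjusted p = 6.32e-05). With the replicate block 19 passed, among them copia in old females (-1.84, adjusted p = 0.041). In the main fit 94 to 98 of 105 transposons were called higher in females within single conditions, and 126 to 140 of 258 features were not called. By age or genotype 253 to 258 features were not called, so the 16 calls say little about these elements. Shares of all features are not given for the single-condition counts under other settings, nor for the 4 by age with spike-in reads.

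These uncalled differences reversed. By age, rooA was at -0.058 with DESeq2, roo at 0.15 and diver2 at 0.39 with 19 to 25 nt reads, and 0.24 and 0.48 at other lengths, while diver2 ran from -0.44 to 0.020 without 1 library. With dFOXO loss in males, DMTN1731 was at 0.19 with transposon reads, 0.52 with 19 to 25 nt reads and 0.61 at other lengths, and -0.39 to 0.053 without 1 library. In females, diver2 was at 0.083 and DMTN1731 at 0.39 with spike-in reads, DMTN1731 at 0.10 with transposon reads, and roo at -0.12 with 19 to 25 nt reads and -0.17 at other lengths. In the difference of the effects, DMTN1731 was at 0.16 with TMM and -0.48 to 0.075 without 1 library, and copia was at 0.49 and DMTN1731 at 0.72 with spike-in reads. The cause was not tested. The share of diver2 by sex ran from -0.49 to 0.37 points without 1 library. The log2 ratio of roo to copia by sex was 2.13 (p = 0.00781, exact test) with 19 to 25 nt reads and 2.79 at other lengths, and by age -0.52 (p = 0.102, exact test) at other lengths. With the replicate number as pairs, the ratio by genotype kept log2 2.08 (p = 0.00781, exact permutation test of 8 pairs). The scaling by spike-ins rests on 91 to 1970 reads per library.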
